A study of Drosophila melanogaster with 3 samples.

Results

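In Kc167 cells, a line derived from Drosophila melanogaster embryos, 808 of 7621 binding sites detected with an antibody against the BTB domain of Mod(mdg4) met an L(3)mbt site whose centre lay to one side and met no site of the 2.2 isoform. These off-centre sites were chosen by position. A peak of the BTB list on the chromosome arms 2L, 2R, 3L, 3R or X was taken when it shared at least 1 bp with an L(3)mbt peak, shared none with a 2.2 peak, and had its centre more than 200 bp from the centre of the nearest overlapping L(3)mbt peak, here called its partner. They made up 808 of the 6144 BTB peaks on these arms. Of the 1747 BTB peaks there that met L(3)mbt without 2.2, the rule took 808 (46.3%) as off-centre and left 939 as centred. The overlaps and the distances between centres that chose them are therefore given below as a description and support nothing. Peak widths, the nesting of peaks and the number of BTB peaks under a partner are tied to those distances and are also a description.

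The Mod(mdg4) proteins are chromatin proteins made from a single locus by trans-splicing. Its isoforms share an N-terminal BTB domain, through which proteins of this kind bind one another, and differ in their C-terminal ends. The 2.2 isoform is recruited by the zinc finger protein Su(Hw) to the gypsy insulator, a DNA element that blocks contact between enhancers and promoters. L(3)mbt carries MBT repeats, a fold that binds methylated lysines of histones, and is known as a tumour suppressor of the larval brain that keeps germline genes silent in somatic cells. A BTB peak with no 2.2 peak marks Mod(mdg4) without a detected 2.2 isoform. Whether 2.2 was there below detection, or which other isoform was present, was not measured.

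Chromatin of Kc167 cells was fixed with formaldehyde, sheared and precipitated with an antibody against L(3)mbt, against the BTB domain, or against the 2.2 isoform. Each antibody gave 1 library, so no difference below has a replicate check and none was tested. Intervals are 95% intervals and cover counting error only. The 3 lists held 2890, 6144 and 2195 peaks on these arms for L(3)mbt, BTB and 2.2, and no 2 peaks of 1 list overlapped. Sequencing depth is unknown, because the files give peaks and not reads. Scores were therefore compared only within a list, mainly as percentiles, and all scores at or above 3100 were treated as tied at a ceiling. The centre of a peak is the midpoint between its ends, which need not be where the signal was highest. Sonication gave fragments of 200 to 1000 bp, and libraries were cut from a gel at 200 to 300 bp.

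The off-centre L(3)mbt peaks lay from 201 to 4948 bp from the BTB centre, with a median of 492.5 bp (466 to 534) and an interquartile range of 320 to 836 bp. The median among centred peaks was 48.5 bp (44.5 to 53.5). Distances of more than 1000 bp were found at 148 off-centre peaks (18.3%). L(3)mbt lay at the higher coordinate in 390 of the 808 off-centre peaks (48.3%, 44.8 to 51.7%) and in 463 of the 939 centred peaks (49.3%, 46.1 to 52.5%). Both intervals include equal shares of the 2 sides. Just inside the threshold were the BTB peaks at 2R, 8049816 to 8050938, at 2L, 19791578 to 19792009, and at 3R, 7261032 to 7261613, with distances of 201, 201.5 and 201.5 bp. Just outside it were 3L, 15065056 to 15066158, at 200 bp, 3R, 14238092 to 14238587, at 200 bp, and 3L, 5745014 to 5745591, at 199.5 bp. The distances run on across the threshold without a gap. Positions count from 1 on the sequences the files name, whose names are those of release 5 of the assembly, and no source used here names the build. The genes and DNA sequence at these positions were not analysed here.

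**Figure D1:**
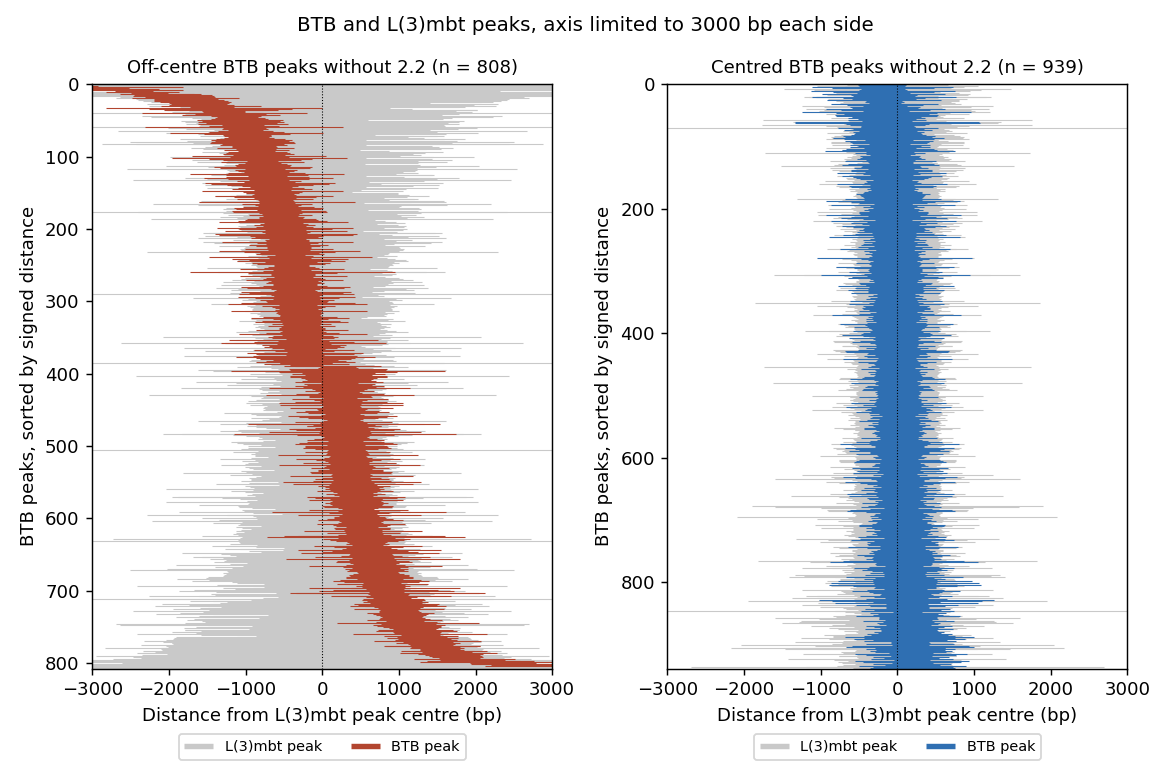
Each row is 1 BTB peak without 2.2, drawn in colour over its L(3)mbt partner in grey, by distance in bp from the centre of the partner. The 808 off-centre peaks are on the left and the 939 centred peaks on the right, and rows are sorted by signed distance. Off-centre BTB peaks run along 1 side of partners that reach well past them on the other side.

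At most of the off-centre sites the BTB peak lay whole within a larger L(3)mbt peak. This was so for 590 of the 808 (73.0%, 69.9 to 76.0%) and for 830 of the 939 centred peaks (88.4%, 86.2 to 90.3%). Neither peak enclosed the other at 216 off-centre peaks (26.7%, 23.8 to 29.9%) and at 96 centred peaks (10.2%, 8.45 to 12.3%). Only 2 off-centre BTB peaks enclosed their partner, at 2R, 2898532 to 2900476, with a width of 1945 bp around an L(3)mbt peak of 1414 bp, and at 2L, 7387700 to 7389307, with 1608 bp around 1005 bp.

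By the place of the 2 centres, 3 arrangements could be told apart. At 494 off-centre peaks (61.1%, 57.7 to 64.4%) the BTB centre was inside the L(3)mbt peak and the L(3)mbt centre was outside the BTB peak. At 252 (31.2%, 28.1 to 34.5%) each peak held the centre of the other, and at 53 (6.56%, 5.05 to 8.48%) neither did, so that the peaks met at their edges. The remaining peaks held the L(3)mbt centre while their own centre was outside the partner. The shortest overlap was 8 bp and the median was 671 bp (642 to 707).

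The partners of off-centre peaks were wide. Their median width was 2050 bp (1954 to 2142) counted once per BTB peak, or 1955.5 bp (1890 to 2053) over the 668 distinct partners, against 1145 bp (1132 to 1156) for the partners of centred peaks and 1389 bp over all L(3)mbt peaks of these arms. The BTB peaks themselves had a median width of 706.5 bp (668 to 750) off-centre and 705 bp (684 to 730) centred. The off-centre peak covered a median of 30.4% of its partner (29.0 to 31.6%), and the centred peak 59.5% (57.8 to 61.0%). Of the 1747 peaks, those off-centre were 9.59% under partners narrower than 1000 bp (4.72 to 18.5%), 19.0% at 1000 to 1500 bp (16.5 to 21.8%), 67.4% at 1500 to 2500 bp (63.2 to 71.3%) and 88.6% at 2500 bp or more (84.7 to 91.5%). A distance of more than 200 bp is easier to reach in a wide peak, so this order is partly set by the rule. Across the 808 peaks distance and partner width had a Spearman rho of 0.60. Those points share the partner in both measures, and 264 of them share it with another off-centre peak.

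**Figure D2:**
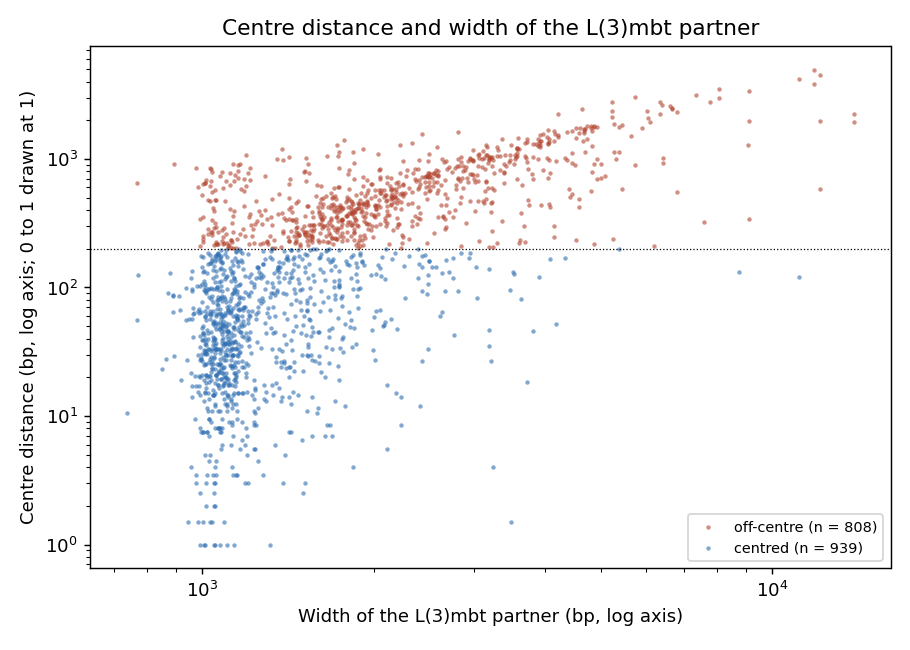
Each point is 1 BTB peak without 2.2 that met L(3)mbt, by the width of its partner (bp, log axis) and the distance between centres (bp, log axis). The 808 off-centre and 939 centred peaks are divided by the 200 bp threshold, drawn as a dotted line. Most centred peaks crowd at partner widths near 1145 bp, and the greatest distances are found under the widest partners.

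On the way from the middle of the partner to its end, the centre of an off-centre BTB peak lay a median of 48.2% of the distance out (46.7 to 50.1%, interquartile range 35.8 to 65.0%). Among the 590 that lay whole within the partner, the nearer end of the partner was a median of 250 bp from the BTB peak (238 to 267, interquartile range 168 to 345 bp) and the farther end 1313 bp (1234 to 1432). Among the 830 centred peaks these medians were 208 bp (199 to 214) and 289.5 bp (280 to 296). The distance to the nearer end was greater under wider partners. It had a median of 123 bp (87.0 to 159) in the 37 off-centre peaks under partners of 1000 to 1500 bp, 231 bp (222 to 245) in 284 under partners of 1500 to 2500 bp, and 302 bp (285 to 340) in 269 under partners of 2500 bp or more. The farther end lay 687, 985 and 2293 bp away in the same 3 bands. The spread was large in the widest band, where the interquartile range of the nearer end was 212 to 786 bp and 61 of the 269 peaks lay within 200 bp of it (22.7%, 18.1 to 28.0%).

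The most distant off-centre peaks belonged to the longest L(3)mbt peaks. At 3L, 3417629 to 3419119, a BTB peak at the score ceiling lay 4948 bp from the centre of an L(3)mbt peak of 11843 bp that spans 3407505 to 3419347. The same L(3)mbt peak held a second off-centre BTB peak at 3417016 to 3417528, 3846 bp from its centre. At 2R, 9224010 to 9226228, the distance was 4522 bp in a partner of 12127 bp, and at 2R, 9389558 to 9390782, it was 4185 bp in a partner of 11167 bp. At 2L, 20303159 to 20303691, it was 3529.5 bp in a partner of 8082 bp. These 5 BTB peaks lay whole within their partners. The widest partner of any, at 2L, 535848 to 549775, measured 13928 bp, scored 166 and held off-centre BTB peaks at 540355 to 541373 and at 544088 to 546045. They lay on opposite sides of its centre at distances of 1947.5 and 2255 bp. At 2R, 9220772 to 9221586, another BTB peak lay 582 bp from the centre of the 12127 bp partner, which makes it the peak of median distance on that arm.

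Under its partner an off-centre BTB peak was alone, beside other BTB peaks of which none was at the partner's centre, or beside one that was. It was alone at 472 of the 808 (58.4%, 55.0 to 61.8%), against 884 of the 939 centred peaks (94.1%, 92.5 to 95.5%). The partner met at least 1 other BTB peak at 336 off-centre peaks (41.6%, 38.2 to 45.0%) and at 55 centred peaks (5.86%, 4.53 to 7.55%). For BTB peaks with both 2.2 and L(3)mbt it did so at 121 of 436 (27.8%, 23.8 to 32.1%). Over all L(3)mbt peaks of these arms that met BTB, 12.7% met 2 or more BTB peaks. Counting 1 off-centre peak per partner, the share was 29.3% (26.0 to 32.9%). A BTB peak lay within 200 bp of the partner's centre in 60 cases (7.43%, 5.81 to 9.44%), while in 276 cases (34.2%, 31.0 to 37.5%) no BTB peak was centred on it.

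Partner widths and BTB scores are given here for each of the 3 arrangements. Lone peaks had a median distance of 412 bp (384 to 441) under partners of 1879 bp (1810 to 1949). Peaks beside others with none centred had 598 bp (523 to 704) under partners of 2594 bp (2388 to 2990), and peaks beside a centred one had 782 bp (713 to 920) under partners of 1720 bp (1290 to 2430). The BTB score was at the ceiling in 151 lone peaks (32.0%, 27.9 to 36.3%), in 53 of those with none centred (19.2%, 15.0 to 24.3%) and in 6 beside a centred peak (10.0%, 4.66 to 20.1%). The intervals of lone peaks and of those with none centred do not overlap in either measure, while those beside a centred peak, which number only 60, overlap both other arrangements in partner width and the peaks with none centred in ceiling share. Compared with the centred BTB peak under the same partner, the 60 off-centre peaks scored higher in 22 cases, lower in 35 and tied at the ceiling in 3. Their own centre lay outside the partner in 26 of the 60 (43.3%, 31.6 to 55.9%), against 21 of the 472 lone peaks (4.45%, 2.93 to 6.71%).

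Where an L(3)mbt peak met exactly 2 BTB peaks and both were off-centre, the BTB peaks usually flanked its centre. There were 102 such L(3)mbt peaks, with a median width of 2215 bp (2014 to 2590). In 87 of them (85.3%, 77.1 to 90.9%) the BTB peaks lay on opposite sides of the centre, and in 48 (47.1%, 37.7 to 56.7%) the centre fell in the gap between them. No 2 BTB peaks overlap, and each here had to lie more than 200 bp from the centre. Off-centre BTB peaks had a median width of 706.5 bp, so room for 2 on 1 side of such a partner is limited. The share on opposite sides is thus partly set by the rule and is a description. The BTB centres were a median of 1046 bp apart (932 to 1178, interquartile range 756 to 1617 bp). The gap between the BTB peaks had a median of 218 bp (117 to 332) and ran from 5 to 5381 bp. Peaks only a few bp apart may be parts of 1 bound region that the caller divided, which the lists cannot show. Both BTB peaks of a pair were at the ceiling in 2 pairs, 1 of them in 32 and neither in 68. Whether scores within a pair differ more than those of other BTB peaks was not tested. The BTB peak nearer to the L(3)mbt centre scored higher in 53 pairs and the farther one in 47, and 2 pairs tied.

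**Figure D3:**
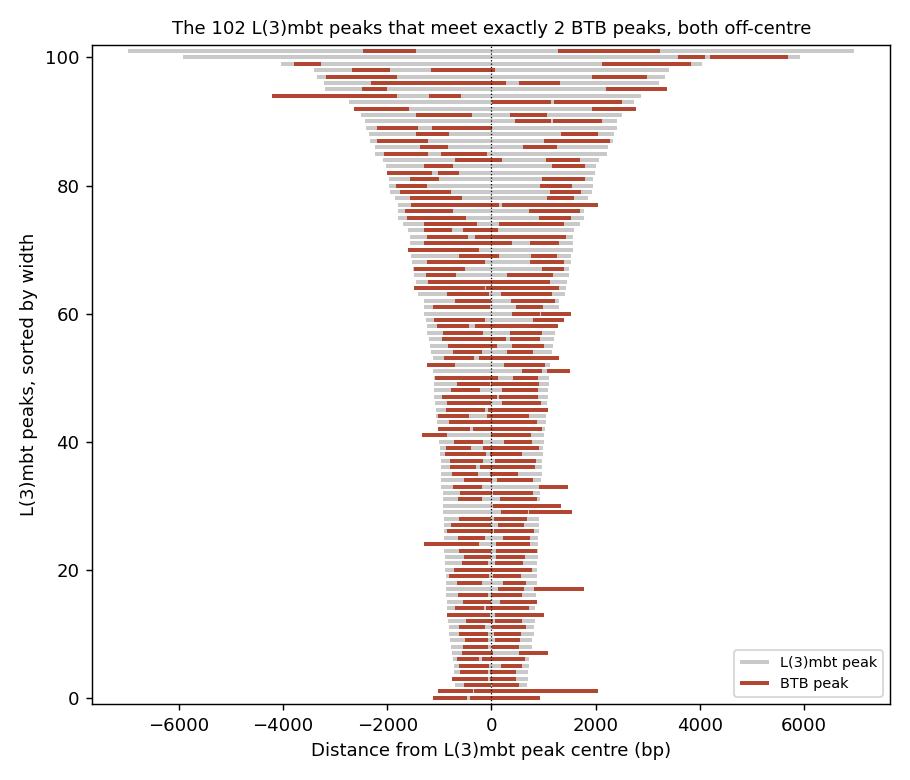
Each row is 1 of the 102 L(3)mbt peaks (grey) that met exactly 2 BTB peaks, both off-centre (red), by distance in bp from its centre and sorted by width. In 87 rows the BTB peaks lie on opposite sides of the dotted line at the centre, a count partly set by the limited room on 1 side.

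No L(3)mbt peak was partner to more than 3 off-centre BTB peaks, and 16 were partner to 3. The first of these in genome order spans 2L, 5976298 to 5985402, with a width of 9105 bp and a score of 2840. Its off-centre BTB peaks lay at 5977072 to 5977927, at 5978584 to 5979172 and at 5979761 to 5981263, with scores of 515, 194 and 1294. A BTB peak under the same partner at 5981821 to 5982836 met a 2.2 peak and so was no member of the class. The second spans 2L, 7808793 to 7812023, and held BTB peaks scoring 1947, 111 and 190 at distances of 464.5, 276 and 1042 bp. The third spans 2L, 22179195 to 22184057, where the outermost BTB peak, at 22179437 to 22180264, was at the ceiling and those at 22180317 to 22181122 and 22181208 to 22182477 scored 266 and 307. In each of these groups the BTB scores were uneven under a single L(3)mbt peak. Whether they were more uneven than those of BTB peaks elsewhere was not tested.

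The L(3)mbt partners of off-centre peaks ranked above L(3)mbt peaks in general, while the BTB peaks did not rank above BTB peaks in general. Ties at the ceiling cap the percentile at 87.1 in the BTB list and at 99.2 in the L(3)mbt list. Percentiles of the 2 lists are therefore not on 1 scale. The median partner percentile was 74.5 (71.4 to 76.7) per BTB peak and 71.6 (68.3 to 75.4) over the 668 distinct partners, against 54.4 (51.1 to 57.1) for the partners of centred peaks and 52.1 (50.3 to 53.9) for all L(3)mbt peaks of these arms. At the ceiling were 31 of the 668 partners (4.64%, 3.29 to 6.51%) and 8 of the 939 partners of centred peaks (0.852%, 0.432 to 1.67%), against 1.63% of all L(3)mbt peaks. Of the 47 L(3)mbt peaks of these arms at the ceiling, 31 were thus partner to an off-centre BTB peak (66.0%, 51.7 to 77.8%), while such partners made up 23.1% of all L(3)mbt peaks. Those 47 were wide, with a median of 2706 bp. Partners were also frequent among wide L(3)mbt peaks of any score, at 220 of the 399 measuring 2500 bp or more (55.1%, 50.2 to 59.9%). The other classes of those 399 included 133 that met no BTB peak and 38 that were partner to a centred one.

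BTB scores of off-centre peaks were spread over the whole list. The median percentile was 47.2 (43.6 to 51.1), against 55.6 (52.5 to 58.0) for centred peaks and 56.4 (55.0 to 57.6) for all BTB peaks of these arms. At the ceiling were 210 of the 808 (26.0%, 23.1 to 29.1%) and 286 of the 939 centred peaks (30.5%, 27.6 to 33.5%), against 30.7% of all BTB peaks. All BTB peaks include those that met 2.2, which the rule leaves out and which scored higher. Among the 2203 BTB peaks with neither L(3)mbt nor 2.2, 510 were at the ceiling and the median percentile was 44.0 (41.9 to 46.9). Off-centre peaks were thus not weaker than BTB peaks that met neither protein. Scores under 200 were found in 184 off-centre peaks (22.8%, 20.0 to 25.8%) and in 152 centred peaks (16.2%, 14.0 to 18.7%). BTB peaks that met both L(3)mbt and 2.2 stood higher than either class, with 220 of 436 at the ceiling (50.5%, 45.8 to 55.1%). The rank of an off-centre BTB peak was almost unrelated to that of its partner, with a Spearman rho of 0.05 over 808 peaks, and of 0.14 over the 939 centred ones. The points of each pair share the partner's library or the BTB library, and no p is given.

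With growing distance the partner ranked higher, while the rank of the BTB peak moved less. The partner's median percentile was 54.4 for centred peaks, 61.0 (53.5 to 66.9) at 200 to 300 bp, 65.0 (59.0 to 71.0) at 300 to 500 bp, 78.6 (74.0 to 81.7) at 500 to 1000 bp and 89.2 (85.8 to 93.0) over 1000 bp. The median partner width over the same bands was 1145, 1552, 1830, 2402.5 and 3998 bp. The BTB percentile was 55.6, 54.5 (46.0 to 62.7), 45.9 (41.1 to 52.7), 46.6 (40.2 to 51.7) and 43.1 (37.9 to 55.6). BTB peaks at the ceiling were 30.5%, 34.9% (28.1 to 42.4%), 24.9% (19.9 to 30.7%), 23.6% (18.8 to 29.2%) and 21.6% (15.8 to 28.9%). The intervals of all off-centre bands overlap for both BTB measures. The share of peaks whose partner met another BTB peak was 5.86%, 18.9%, 36.5%, 47.2% and 66.2% over the same bands.

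**Figure D4:**
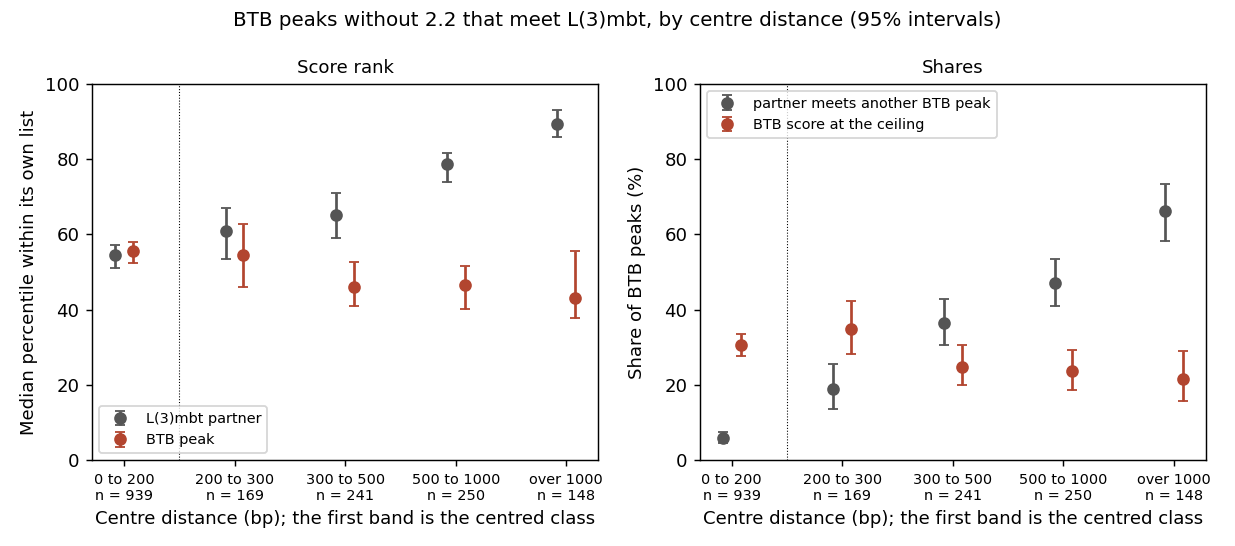
Values for BTB peaks without 2.2 that met L(3)mbt, by band of centre distance in bp, with the centred class as the first band. The left panel gives the median percentile of the L(3)mbt partner (grey) and of the BTB peak (red) within their own lists, and the right panel the share of BTB peaks whose partner met another BTB peak (grey) and the share at the score ceiling (red), with 95% intervals. The partner's percentile is highest over 1000 bp, at 89.2, where the BTB percentile is 43.1.

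The higher rank of the partners went with their width. Within partners of 1000 to 2000 bp, a range chosen after the widths were seen, the median partner percentile was 52.0 (48.3 to 56.1) for 379 off-centre peaks and 54.9 (52.0 to 57.5) for 797 centred ones. Within that range the partners of off-centre peaks were still wider, at a median of 1569 bp (1531 to 1626) against 1143 bp (1132 to 1154). Under partners of 1000 to 1500 bp it was 35.3 (29.3 to 45.9) off-centre and 50.2 (46.8 to 53.8) centred, under 1500 to 2500 bp 69.4 (65.7 to 73.5) and 74.1 (70.4 to 78.1), and under 2500 bp or more 88.3 (86.3 to 91.3) and 83.8 (77.8 to 87.7). Width and percentile of the partner had a Spearman rho of 0.65 over the off-centre peaks. How much of the difference in rank between the classes comes with width was not tested. The BTB ceiling share had no fixed order over the bands of partner width. It was 41.0% off-centre (33.6 to 48.9%) and 30.4% centred (27.0 to 34.0%) under partners of 1000 to 1500 bp, and 20.8% (16.9 to 25.3%) and 32.9% (26.3 to 40.3%) at 1500 to 2500 bp. At 2500 bp or more it was 24.1% (19.6 to 29.4%) off-centre and 10.5% (4.17 to 24.1%) in only 38 centred peaks. BTB width turned as well, at medians of 910 and 676 bp in the narrowest band and 626 and 1049.5 bp in the middle one, off-centre and centred in that order.

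**Figure D5:**
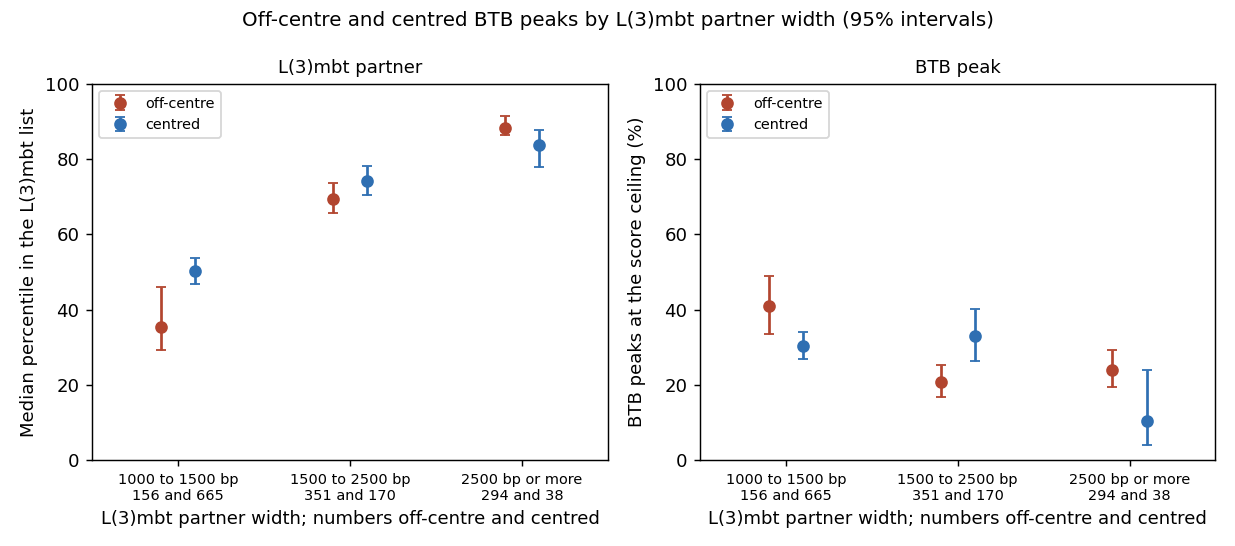
Off-centre (red) and centred (blue) BTB peaks within 3 bands of L(3)mbt partner width, with 95% intervals. The left panel gives the median percentile of the partner in the L(3)mbt list, which goes up with width in both classes, and the right panel the share of BTB peaks at the score ceiling, which is higher off-centre in the narrowest and widest bands and lower in the middle one.

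At 9 of the 808 off-centre sites both scores were at the ceiling. The BTB score was there at 210 of the 808 and the partner's score at 38. Whether the 2 go together was not tested. The 5 that come first along the genome are 2R, 5439387 to 5442056, 3L, 5742617 to 5744021, and 3R, 2911147 to 2912625, 4646100 to 4646847 and 7046953 to 7047858. At the 2R site each peak held the other's centre, with a BTB peak of 2670 bp, a partner of 2706 bp and a distance of 384 bp. At the other 4 the L(3)mbt centre lay outside the BTB peak at distances of 1784, 1321.5, 1390 and 1737 bp. The 3L partner, from 5742410 to 5747796, is the same L(3)mbt peak that holds the centred BTB peak with a score of 114 given above at 199.5 bp. There the strong BTB peak lay to the side and the weak one at the centre.

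The peaks at the median distance of their arm were picked by distance alone and need not be typical in other ways. The one on 2R, given above, lay in a partner of 12127 bp. On 3L, at 17028407 to 17029038, a BTB peak at the ceiling shared 528 of its 632 bp with a partner of 1423 bp that scored 172. On 3R, at 5168001 to 5168533, a BTB peak at the ceiling lay within a partner of 3144 bp scoring 692 that was shared by 3 off-centre peaks. On 2L, at 13549956 to 13550494, a BTB peak scoring 2097 lay 512.5 bp from the centre of a partner of 2014 bp, and on X, at 10212317 to 10213089, one scoring 383 lay 424.5 bp from the centre of a partner of 1750 bp. Both of these partners held a second off-centre BTB peak.

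Off-centre sites were spread over the 5 arms much as BTB peaks are in general. The arm 2L held 127, 2R held 157, 3L and X held 161 each, and 3R held 202. X held 19.9% of them (17.3 to 22.8%), against 19.8% of centred peaks (17.4 to 22.5%) and 19.4% of all BTB peaks. Of the BTB peaks without 2.2 that met L(3)mbt, the share off-centre ran from 44.7% on 2R to 47.4% on 2L, and the interval of 2L (41.5 to 53.4%) holds the values of all 5 arms. The median distance was shortest on X, at 424 bp (381 to 477), and longest on 2R, at 582 bp (481 to 713), with 3R at 490 bp, 3L at 500 bp and 2L at 512 bp between them. Only X and 2R have intervals that do not overlap among these arms, and the difference was not tested.

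Other BTB peaks lay closer to off-centre than to centred peaks. The gap to the next BTB peak was a median of 1866.5 bp (1417 to 2334), against 4839 bp (4379 to 5331) for centred peaks, and it was at most 1 kb at 350 off-centre peaks (43.3%, 39.9 to 46.8%), 170 centred peaks (18.1%, 15.8 to 20.7%) and 24.8% of all BTB peaks. BTB peaks with both 2.2 and L(3)mbt had similar values, with a median gap of 1791 bp (1250 to 2370) and 183 of 436 within 1 kb (42.0%, 37.4 to 46.7%). Partners that hold several BTB peaks set part of these gaps. The next BTB peak was itself off-centre in 359 cases (44.4%, 41.0 to 47.9%), against 188 of the 939 centred peaks (20.0%, 17.6 to 22.7%). It held no L(3)mbt and no 2.2 in 157 cases (19.4%, 16.8 to 22.3%), against 354 for centred peaks (37.7%, 34.7 to 40.8%). Of all 6144 BTB peaks of these arms, 808 were off-centre and 2203 held neither L(3)mbt nor 2.2. Since 264 off-centre peaks share their partner with another, the shares of next peaks are also partly set by the rule. Joined wherever gaps were at most 10 kb, off-centre peaks formed 574 groups, of which 78 held 2 or more partners and 14 held 3 or more. The groups with most partners had 4 each and spanned 3R, 7025682 to 7047858, and X, 12548099 to 12564109. No matching count of groups was made for centred peaks or for all BTB peaks, so grouping is not shown to be particular to off-centre peaks.

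The 2.2 isoform was seldom near. The gap to the nearest 2.2 peak had a median of 19635 bp (17619 to 22097) for off-centre peaks and 23271 bp (21379 to 25462) for centred ones. It was at most 5 kb at 132 off-centre peaks (16.3%, 13.9 to 19.0%) and 123 centred peaks (13.1%, 11.1 to 15.4%), against 16.3% of all BTB peaks without 2.2. The off-centre share equals that background. Although these BTB peaks met no 2.2 peak, their partner did at 33 of them (4.08%, 2.92 to 5.68%), against 2 centred peaks (0.213%, 0.0584 to 0.773%), and in 32 cases another BTB peak under the partner held 2.2. The rule keeps 2.2 out of the BTB peak, which covers a median of 30.4% of the partner off-centre and 59.5% when centred. The room left for 2.2 under the partner is thus partly set by the rule. Leaving out all peaks whose partner met 2.2, a choice made after seeing the data, the shares within 5 kb were 12.8% off-centre (10.6 to 15.3%) and 12.9% centred (10.9 to 15.2%). The closest cases lay 17, 21 and 26 bp from a 2.2 peak, at 3R, 6214477 to 6215293, and at X, 7200531 to 7201165 and 10495323 to 10496040. In each of these the partner also met 2.2, and the BTB peak at 7200531 shared only 32 bp with it.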

How the data were processed

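ChIP-seq of Kc167 cells was represented by 1 list of peaks per antibody, as deposited by the authors. The submitters' processing notes name Bowtie 0.12.5, and peak names have the form MACS writes, per the files. No source used here names the caller's settings, its control or the genome build. The deposited score is a value the caller gives each peak. It was used as a percentile within the whole list, with ties at their mean rank and values at or above 3100 tied.

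Overlaps of at least 1 bp, centre distances, widths, nesting and gaps were computed with Python 3.11.15, numpy 2.4.6, pandas 2.3.3 and scipy 1.17.1, and figures with matplotlib 3.10.9. Shares carry Wilson intervals and medians binomial order-statistic intervals. Depth is unknown, and with 1 library per antibody no test was run. The class assignment was tested on simulated lists of well separated BTB peaks, each with at most 1 L(3)mbt peak. Shared partners, a choice between partners and distances within a few bp of the threshold were therefore not covered. Members, comparisons and alternatives were chosen with earlier results of these data known.

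Named peaks are the 5 at the greatest distance, the 5 with the highest mean percentile in both lists, the 3 partners of most members, the 3 on each side of the threshold, the median of each arm, the 3 nearest to 2.2, and the extremes of nesting, with ties by position. The groups with most partners were named after their values were seen. Alternatives changed the threshold, the overlap, the partner, the 2.2 gap and the score. Settings with 1 peak per partner, a narrower range of partner width and partners without 2.2 were added after seeing the data.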

Additional observations from a re-analysis of the deposited data

Results flagged for a closer look

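Outside the 5 long arms, in sequence that the comparisons above do not use, 11 BTB peaks met the same rule. They were among the 69 BTB peaks there that met L(3)mbt without 2.2. Of the 11, 9 lay on Uextra, a set of unplaced sequence, as did 60 of the 69. Their median distance was 459 bp (284 to 3014), their partners had a median width of 1804 bp (1584 to 7756), and none had a BTB score at the ceiling (0%, 0 to 25.9%).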

How the results depend on the processing

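No paired analysis was possible because each antibody has 1 library and the lists carry no replicate numbers. Of 90 values under 9 alternatives, 57 stayed within the interval of the reported value, or for the number of peaks within 1.5 times of it. Several alternatives keep most of the same peaks, so this count does not measure how well the results would repeat. Choosing the partner by longest overlap could change little, because only 2 of the 808 off-centre peaks met 2 L(3)mbt peaks. With a threshold of 100 bp, medians for off-centre peaks were 754 bp (BTB width), 1870.5 bp (partner width) and 71.1 (partner percentile), and shares were 52.5% (L(3)mbt centre outside the BTB peak), 34.1% (partner with another BTB peak) and 3.84% (partner centred on another BTB peak). With 400 bp there were 507 off-centre peaks, partner width 2545 bp and percentile 81.3, and the same shares were 87.4%, 52.1% and 21.7%, with 17.0% on X. With an overlap of 50% of the shorter peak, 37.8% of partners met another BTB peak and 4.63% were centred on one. Requiring 1 kb without 2.2 left 12.0% with 2.2 within 5 kb. In the upper 50% of the BTB and L(3)mbt lists there were 282 peaks, with 53.2% at the BTB ceiling, BTB width 961.5 bp, partner width 2287.5 bp, percentile 83.6, and shares of 55.3%, 22% and 1.06%. With 1 peak per partner, 62.0% had the L(3)mbt centre outside and 29.3% had a partner with another BTB peak. With partners of 1000 to 2000 bp there were 379 peaks, with BTB width 646 bp, partner width 1569 bp, percentile 52.0, 53.3% with the L(3)mbt centre outside and 30.6% with another BTB peak. Without partners that met 2.2, 12.8% had 2.2 within 5 kb. Partners were wider than those of centred peaks, and met another BTB peak more often, under all 9 alternatives. The partner percentile was higher under 8, all but the range of 1000 to 2000 bp, where it was 52.0 against 54.9 for centred peaks, whose partners there had a median width of 1143 bp. BTB width and the share on X were nearly equal in the 2 classes, at 706.5 and 705 bp and at 19.9% and 19.8%. Their order held under 7 and 6 of the 9, which shows no difference between the classes. The share with 2.2 within 5 kb was higher under 8. The BTB ceiling share was lower under all 9, and nearest to equal with the 100 bp threshold, at 28.3% against 28.5%. Except where the rule itself sets the value, the cause of these shifts was not tested. Unknown depth limits any reading of weak peaks.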
